A study of Rattus norvegicus with 16 samples.

Results

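The collagen genes of the rat genome that the array measures were described in the hippocampus and frontal cortex of young and old rats. They were chosen by name, as every probe whose platform gene symbol reads Col, a number, "a" and a number, with the probe of highest mean signal over all arrays standing for the gene. This gave 37 collagen genes on 93 probes, of 16921 genes on 45904 probes with a listed gene. Total RNA from brains of male LOU/C/Jall rats, an inbred strain, was labelled with Cy3 and hybridised to one-colour Agilent arrays. The 16 arrays form 4 groups of 4: young hippocampus, old hippocampus, young frontal cortex and old frontal cortex. All groups share strain and sex and none received a treatment that the labels name. Old rats were 26 months old. Young rats were 5 months old in the sample labels and 3 months old in the series design text, and which holds is not known. The series title speaks of successful aging, and since LOU/C/Jall is the single strain on the arrays, ages and regions are what can be compared. Arrays are named here by the letter code of their title, which is Y, Z, AA or AB in young rats and AF, AG, AH or AI in old rats, with each letter code found once per region. The labels do not say whether a code is 1 animal or whether arrays of a group come from separate animals, so p-values measure the spread between these arrays.

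Collagens are secreted proteins of 3 chains wound into a triple helix, and each gene encodes 1 kind of chain. Fibrillar collagens assemble into the cross-striated fibrils of connective tissue, in the brain mainly in the meninges and in the walls of larger vessels. Network collagens form sheets, of which type IV is the scaffold of the basement membrane around every brain capillary. Type VI collagen forms beaded filaments between fibrils and basement membranes, FACIT collagens sit on the surface of fibrils without forming fibrils of their own, and multiplexins carry sugar chains and lie in basement membranes. Neural tissue itself holds little fibrillar collagen, and fibroblasts, vessel wall cells and choroid plexus stroma are its known sources there.

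The values are log2 signals as the authors deposited them, and a difference of 1 is a 2-fold change. Levels are compared only within a gene, never between genes, because each probe has its own brightness. A gene was tested if its highest group mean was above 6.49 log2, the 40th percentile of the probe means, which 10036 genes passed. The marker genes of the labelled regions were read on the same scale. All 4 tested markers of hippocampal neurons, among them Fibcd1 (3.32 ± 0.084 log2 higher, SE), were called higher in hippocampus, and 3 of 4 cortical neuron markers were called higher in frontal cortex, the exception being Rasgrf2. All 11 tested choroid plexus markers were higher in hippocampus (8 called), with means per array from 0.85 below to 3.44 above the 16-array mean there. All 7 tested striatal markers were higher in frontal cortex (6 called), with array means from 0.27 below to 2.26 above the 16-array mean there. Some of these markers passed the minimum only through the region where they are high, so their differences are tied to their passing. They are Dsp (hippocampal), Kl, Clic6, Folr1, Sostdc1, Otx2, Slc4a5 and F5 (choroid plexus) and Adora2a (striatal). Of all tested genes 28.8% were called between the regions. Young array Y of both regions and young frontal cortex array Z had the highest means of meningeal fibroblast markers, 0.86 to 1.20 above the 16-array mean. Negative control spots averaged 4.99 log2.

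Of the 37 collagen genes, 21 passed the minimum: 8 of 11 fibrillar, 5 of 9 basement membrane and network, 2 of 4 beaded filament, 4 of 8 FACIT and 2 of 5 multiplexin and transmembrane genes. Passing needed only 1 bright group, so the 21 are not all members and their counts are no sample of the family. The lowest highest-group mean that passed was that of Col7a1 at 6.58, followed by Col4a5 at 6.64. The nearest below the minimum were Col23a1 at 6.39 and Col11a1 at 6.36. The 16 genes left untested include the cartilage chain Col2a1 and the kidney and lung basement membrane chains Col4a3 and Col4a4. The type VI chains Col6a3 and Col6a6 and the epithelial adhesion collagen Col17a1 were also untested. The means of 7 of the 16 lay within 0.25 log2 of the negative control mean, where a level cannot be told from background.

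**Figure D1:**
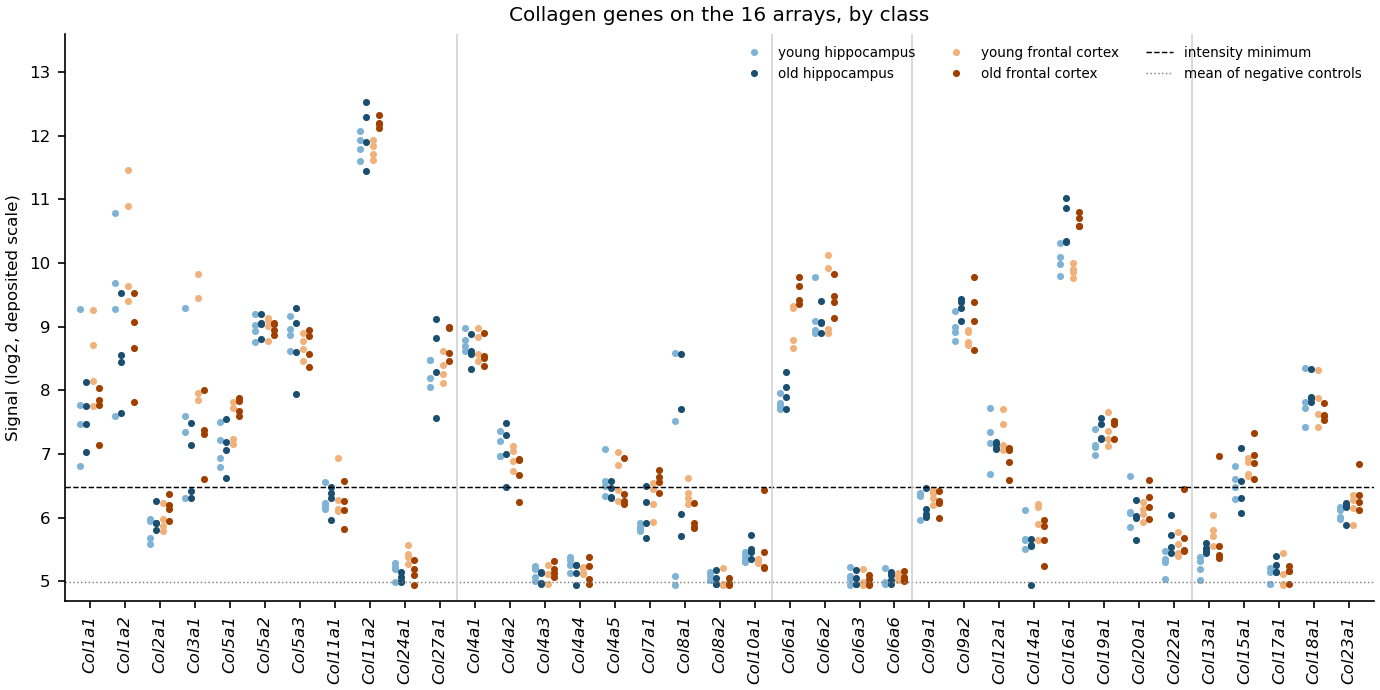
Deposited log2 signal of each of the 37 collagen genes (horizontal axis, by class, grey lines between classes) on the 16 arrays, with 1 point per array and 4 colours for the 4 groups. The dashed line is the minimum of 6.49 and the dotted line the negative control mean of 4.99; Col1a1, Col1a2, Col3a1 and Col8a1 are widely scattered within groups, whereas Col6a1 splits by region.

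Age moved few collagen genes past the test. In frontal cortex Col16a1 was the 1 called gene of 21, higher in old rats, at an adjusted p under 0.05 by limma with Benjamini-Hochberg adjustment over all 10036 genes, where 0.967% of all tested genes were called. In hippocampus 0 of 21 were called, where 0.0399% of all genes were, and 1 of 21, again Col16a1, had an unadjusted p under 0.05. In frontal cortex 7 of 21 (33.3%) had an unadjusted p under 0.05, against 22.2% of all tested genes. The signs were mixed: 11 of 21 were higher and 10 lower in old hippocampus, with a median difference of 0.001 log2 (0.01 over all genes), and 9 were higher and 12 lower in old frontal cortex, with a median of -0.008 (0.001 over all genes). Old and young arrays did not overlap for Col16a1 in hippocampus, which 4.57% of all genes showed, nor for Col16a1, Col11a2 and Col6a1 in frontal cortex, which 12.8% of all genes showed. For the difference of the age effects between the regions 0 of 21 collagen genes were called, where 0% of all genes were. By limma 0 of 21 had an unadjusted p under 0.05. Some 95% intervals of this difference were wide, as for Col1a2 from -2.59 to 1.03, so the lack of calls does not show equal age effects. The region comparison is between hippocampus and frontal cortex over both ages, and there 3 of 21 were called, all lower in hippocampus, where 28.8% of all genes were called. Among these 3, Col7a1 passed the minimum only through a frontal cortex group.

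**Figure D2:**
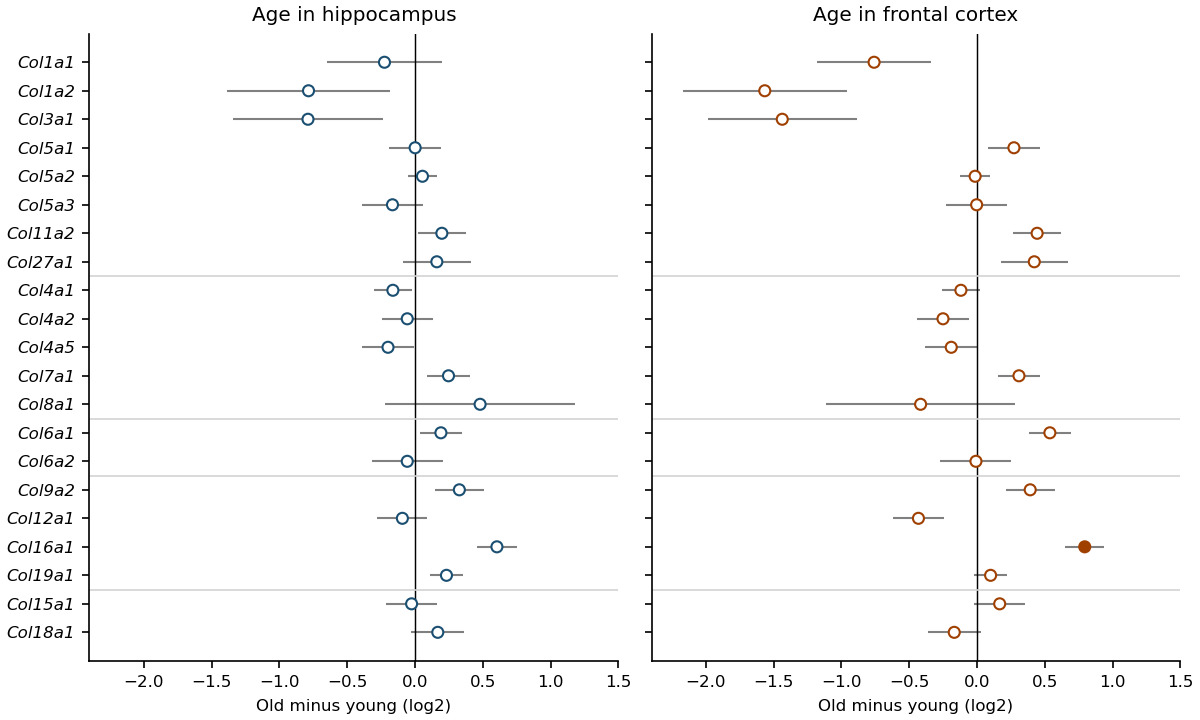
Old minus young difference in log2 signal of the 21 tested collagen genes in hippocampus (left) and frontal cortex (right), with bars for the SE of the fit; a filled point is called. Col16a1 in frontal cortex (0.79) is filled, and Col1a2 and Col3a1 lie farthest to the left with the longest bars of the fibrillar genes.

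Among the fibrillar genes Col1a1, Col1a2 and Col3a1 varied widely between arrays. Of 8 tested, 3 were higher and 5 lower in old frontal cortex and 4 were higher and 4 lower in old hippocampus, with 0 called in either region (3 and 0 at an unadjusted p under 0.05). Col1a1 and Col1a2 encode the chains of type I collagen, the main fibril of the meninges, and Col3a1 the type III chain that joins it in soft tissue and vessel walls. Col3a1 had 9.45, 9.83, 7.85 and 7.96 log2 on the young frontal cortex arrays Y, Z, AA and AB and 6.61, 7.32, 7.38 and 8.01 on the old arrays AF, AG, AH and AI. In hippocampus its values were 9.29, 7.35, 6.31 and 7.60 on the young and 6.31, 6.42, 7.14 and 7.49 on the old arrays. The high arrays were young Y of both regions and young Z of frontal cortex, and the ages overlapped in both regions. The old minus young difference of Col3a1 was -1.44 ± 0.55 log2 (SE, n = 4 per group) in frontal cortex (limma adjusted p = 0.149) and -0.79 ± 0.55 in hippocampus (adjusted p = 0.801).

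Col1a2 had 10.89, 11.46, 9.40 and 9.64 log2 on the young and 7.83, 8.66, 9.07 and 9.53 on the old frontal cortex arrays, where 1 old array lay above 1 young array. In hippocampus it ranged from 7.59 to 10.79 in young and from 7.65 to 9.53 in old rats. The same 3 young arrays were highest. Its difference in frontal cortex was -1.56 ± 0.60 (adjusted p = 0.151) and in hippocampus -0.79 ± 0.60 (adjusted p = 0.818). Col1a1 followed with -0.76 ± 0.42 in frontal cortex (adjusted p = 0.303) and -0.23 ± 0.42 in hippocampus (adjusted p = 0.936). The probes of Col1a1 differed in size: its other 2 probes gave -1.23 and -1.08 in frontal cortex, and on the first of these the ages did not overlap, as also on the second Col3a1 probe (-1.43). The residual SDs of Col1a1, Col1a2 and Col3a1 were 0.686, 0.982 and 0.895 log2, at or above the 98.9th percentile of all tested genes, whose median was 0.165.

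Markers of meningeal fibroblasts, and of pericytes and smooth muscle, moved with these 3 genes. On the frontal cortex arrays the mean of Col1a1, Col1a2 and Col3a1 fell in the order Z, Y, AB, AI, AA, AH, AG, AF, and the mean of the 11 tested meningeal fibroblast markers fell in the same order at all 8 places. In hippocampus 6 of 8 places were the same. All 11 tested meningeal markers (of 17 listed and 15 on the array) were lower in old frontal cortex, with a median of -0.83 log2 and 0 called (4 at an unadjusted p under 0.05), for example Ogn, a small proteoglycan of connective tissue, at -1.37 ± 0.59 (adjusted p = 0.19). Foxc2 (-1.08 ± 0.28, adjusted p = 0.0653) passed the minimum only through young frontal cortex, so its fall there is tied to its passing. Omd, Bmp6 and Bmp7 passed only through the young groups, so their falls are tied in the same way. Of the 4 markers on the array that did not pass, Alx4 was higher in both old groups (5.38 against 5.89 in frontal cortex and 5.23 against 5.49 in hippocampus, young against old). In old hippocampus 10 of 11 were lower, with a median of -0.27 and 0 called (0 at an unadjusted p under 0.05). The array means of the markers ranged from -0.10 to 1.20 in young and from -0.72 to 0.08 in old frontal cortex, and from -0.94 to 1.01 in young and from -0.79 to 0.34 in old hippocampus. The mean of the 12 tested pericyte and smooth muscle markers was also highest on young arrays Y of hippocampus and Y and Z of frontal cortex, 0.50, 0.49 and 0.53 above the 16-array mean, and 0.16 or lower on all others. Without young frontal cortex arrays Y and Z the differences of Col1a1, Col1a2 and Col3a1 in frontal cortex were -0.24, -0.74 and -0.57 (adjusted p = 0.838, 0.614 and 0.657). Y and Z were the highest young frontal cortex arrays for these 3 genes, so smaller differences follow from leaving them out. In tissue arrays fewer cells of a type and less RNA per cell cannot be told apart, and the part of meningeal tissue or of vessel walls in the collagen values was not tested.

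**Figure D3:**
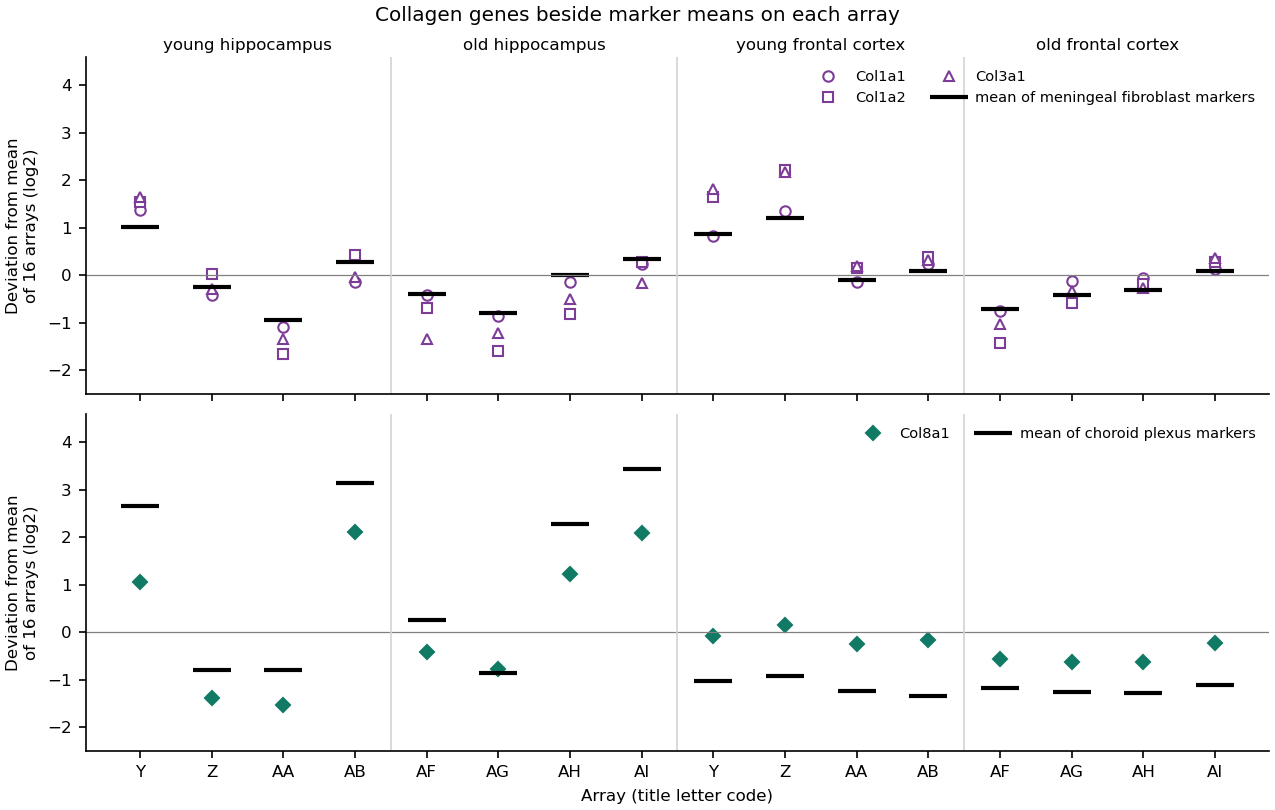
Deviation from the 16-array mean (log2) on each array, named by letter code and grouped by age and region. Top, Col1a1, Col1a2 and Col3a1 (open symbols) with the mean of 11 meningeal fibroblast markers (bars); the 3 genes and the bar are all high on young arrays Y of both regions and Z of frontal cortex. Bottom, Col8a1 (diamonds) with the mean of 11 choroid plexus markers (bars), both high on hippocampus arrays Y, AB, AH and AI.

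The promoter of Col1a2 is shown because this gene had the largest age difference of the family in frontal cortex. The window, from RefSeq on the GRCr8 assembly, runs from 250 bases before to 50 bases after the annotated start at chr4:33518307-33518606, plus strand, written 5′ to 3′. Capitals mark a CCAAT box read on the other strand, as ATTGG, 221 bases upstream of the start, and a TATAAA 170 bases upstream.
Col1a2: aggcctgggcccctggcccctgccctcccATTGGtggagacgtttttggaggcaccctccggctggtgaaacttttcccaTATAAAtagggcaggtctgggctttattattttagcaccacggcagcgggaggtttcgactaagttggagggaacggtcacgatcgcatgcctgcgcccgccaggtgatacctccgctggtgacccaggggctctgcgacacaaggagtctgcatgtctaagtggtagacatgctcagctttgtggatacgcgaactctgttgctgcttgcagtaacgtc
Both motifs, with GGGCGG (the GC box) and TGACTCA (the AP-1 motif), were searched on both strands of every window, and no matches overlapped in the windows shown. Of all 33469 RefSeq windows of this length 37.5% held CCAAT, 14.2% TATAAA, 33.1% GGGCGG and 4.63% TGACTCA. Of the 17 tested collagen genes with a window (of 30 among all 37), 4 held CCAAT, 1 TATAAA, 11 GGGCGG and 1 TGACTCA. Col1a2 was the only 1 of these 17 with TATAAA. A match is a description of letters and not of binding.

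The other fibrillar genes varied less than Col1a1, Col1a2 and Col3a1. Their residual SDs ran from 0.152 for Col5a2 to 0.397 for Col27a1, which is at the 95.8th percentile of all tested genes. Col11a2, a chain of the type XI collagen known from cartilage fibrils, had 11.93, 11.84, 11.62 and 11.71 log2 on the young and 12.20, 12.32, 12.18 and 12.11 on the old frontal cortex arrays. The ages did not overlap on any of its 4 probes, old being higher, with differences from 0.42 to 0.45. On the brightest probe it was 0.44 ± 0.18 (adjusted p = 0.158), so the call was missed. In hippocampus, where old values ran from 11.44 to 12.53, it was 0.20 ± 0.18 (adjusted p = 0.839). Col27a1, which also encodes a cartilage fibril chain, differed by 0.42 ± 0.25 in frontal cortex (adjusted p = 0.331) and 0.16 in hippocampus.

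The type V chains regulate the start and the thickness of type I fibrils. Col5a1 showed no call for age, with 0.27 ± 0.19 in frontal cortex (adjusted p = 0.426) and 0.00 ± 0.19 in hippocampus, where the fitted 95% interval ran from -0.41 to 0.41. Col5a2 had the smallest residual SD of the tested collagens, 0.152, and differed by -0.01 in frontal cortex and 0.06 in hippocampus. Col5a3 differed by -0.003 in frontal cortex and -0.17 in hippocampus. The intervals of Col5a2 and Col5a3 in frontal cortex ran from -0.25 to 0.22 and from -0.48 to 0.47.

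In the basement membrane class 1 of 5 tested genes was higher and 4 lower in old frontal cortex, and 2 were higher and 3 lower in old hippocampus, with 0 called in either by limma (0 and 0 at an unadjusted p under 0.05). Col4a1 and Col4a2 encode the 2 chains of the ubiquitous type IV network. Col4a1 had 8.97, 8.83, 8.58 and 8.46 on the young and 8.38, 8.51, 8.89 and 8.54 on the old frontal cortex arrays, with overlap. Its difference was -0.12 ± 0.14 there (adjusted p = 0.646) and -0.16 ± 0.14 in hippocampus (adjusted p = 0.835). Col4a2 differed by -0.25 ± 0.19 in frontal cortex (adjusted p = 0.453) and -0.06 in hippocampus. Col4a5, a chain of a more restricted type IV network, differed by -0.19 in frontal cortex and -0.20 in hippocampus (adjusted p = 0.583 and 0.858). It passed the minimum only through the young groups (6.64 and 6.63, against 6.44 and 6.42 in the old). Its falls are therefore tied to its passing.

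The Col4a1 promoter is shown because its start lies 77 bases from that of Col4a2 on the opposite strand, so that both genes are read outward from 1 shared stretch. The RefSeq window on GRCr8 is chr16:84885347-84885646, plus strand, and capitals mark CCAAT, read on the other strand as ATTGG, and GGGCGG, read on the other strand as CCGCCC.
Col4a1: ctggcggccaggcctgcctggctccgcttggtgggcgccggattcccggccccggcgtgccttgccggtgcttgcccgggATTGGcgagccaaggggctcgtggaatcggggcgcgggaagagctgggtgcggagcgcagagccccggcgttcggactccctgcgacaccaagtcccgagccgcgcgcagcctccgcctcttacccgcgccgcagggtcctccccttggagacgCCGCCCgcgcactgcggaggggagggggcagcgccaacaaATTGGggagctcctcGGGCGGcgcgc
The untested pair Col4a3 and Col4a4 is also arranged head to head, with 413 bases between the starts.

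Col8a1, a short-chain network collagen of vessel walls and of the eye, had the largest residual SD of the tested collagens, 1.141 log2. In hippocampus it had 7.53, 5.09, 4.95 and 8.59 on young arrays Y, Z, AA and AB and 6.05, 5.71, 7.71 and 8.57 on old arrays AF, AG, AH and AI. The values fell into high and low arrays at both ages. The 4 highest, Y, AB, AH and AI, were also the 4 with the highest means of the 11 tested choroid plexus markers (of 12 listed), 2.67, 3.14, 2.27 and 3.44 above the 16-array mean. In frontal cortex Col8a1 stayed between 5.84 and 6.63, with marker means between 1.35 and 0.92 below the 16-array mean. Across the regions the orders differed. Hippocampus arrays Z, AA and AG had higher marker means than all frontal cortex arrays (-0.79, -0.80 and -0.85). Their Col8a1 values (5.09, 4.95 and 5.71) were lower than on all frontal cortex arrays, those of Z and AA near the negative control mean of 4.99. The age differences of Col8a1 were 0.48 ± 0.70 in hippocampus (adjusted p = 0.913) and -0.42 ± 0.70 in frontal cortex (adjusted p = 0.76), and the part of choroid plexus in these values was not tested. Col7a1, which forms the anchoring fibrils of epithelia, differed by 0.31 ± 0.16 in frontal cortex (adjusted p = 0.26) and by 0.25 ± 0.16 in hippocampus (adjusted p = 0.79). It passed the minimum only through old frontal cortex (mean 6.58). Its rise there, the 1 counted as higher in this class, is therefore tied to its passing.

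In the beaded filament class Col6a1 was nearest to a call for age. Col6a1 and Col6a2 encode chains that join with another to form type VI collagen, which surrounds many cell types. Col6a1 had 9.30, 9.32, 8.67 and 8.79 log2 on young frontal cortex arrays Y, Z, AA and AB and 9.78, 9.64, 9.35 and 9.43 on old arrays AF, AG, AH and AI. On this probe the ages did not overlap, the closest being 9.32 and 9.35, while on its second probe the ages overlapped. The difference was 0.54 ± 0.16 (1.45-fold, adjusted p = 0.083), and 0.53 on the second probe. Without young arrays Y and Z of frontal cortex it was 0.83 (limma adjusted p = 0.0416). These 2 were the highest young arrays there, so a larger difference follows from leaving them out. With young hippocampus array Y left out as well, the adjusted p was 0.0515. In hippocampus the difference was 0.19 ± 0.16, with a 95% interval from -0.14 to 0.52. Col6a2 differed by -0.01 ± 0.26 in frontal cortex and -0.06 ± 0.26 in hippocampus. Its 95% interval in frontal cortex, from -0.56 to 0.55, holds the Col6a1 difference, so no contrast between the 2 chains is shown.

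The FACIT class held the 1 age call. Col16a1 encodes the single chain of type XVI collagen, a fibril-associated collagen that can link fibrils and cells. In frontal cortex it had 9.99, 9.90, 9.87 and 9.76 log2 on young arrays Y, Z, AA and AB and 10.80, 10.70, 10.57 and 10.59 on old arrays AF, AG, AH and AI. The ages stood apart by a gap wider than the range of either group. The group means were 9.88 ± 0.095 and 10.66 ± 0.11 (SD, n = 4 each), a difference of 0.79 ± 0.15 log2 (1.73-fold, limma adjusted p = 0.0198).

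In hippocampus Col16a1 had 9.98, 10.09, 10.32 and 9.80 on the young and 10.34, 10.34, 10.87 and 11.02 on the old arrays. The ages again did not overlap, but old arrays AF and AG lay close above young array AA. The difference was 0.60 ± 0.15 (1.52-fold, limma adjusted p = 0.309), with a 95% interval from 0.30 to 0.91. The second Col16a1 probe gave 0.83 in frontal cortex without overlap and 0.55 in hippocampus with overlap. The age effects of the 2 regions differed by 0.19 ± 0.21 (adjusted p = 0.999, interval from -0.25 to 0.63), so the call in 1 region does not show a difference between them.

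The frontal cortex call of Col16a1 was lost without some single arrays, while its difference changed little. The call was kept in 11 of 16 fits that each left out 1 array, with differences from 0.75 to 0.83. Leaving out a hippocampus array cannot change this difference, and all those fits kept the call. It was lost without old array AF (adjusted p = 0.0731) or AG (0.0559), and without young array Z (0.0527), AA (0.0713) or AB (0.082), all of frontal cortex. Without young arrays Y and Z together the difference was 0.86, at an adjusted p of 0.0693. The meningeal markers were lower in old frontal cortex, where Col16a1 was higher. Within young frontal cortex, arrays Y and Z were highest for both, with marker means of 0.86 and 1.20 against -0.10 and 0.09 on AA and AB. Within old frontal cortex, array AF was highest for Col16a1 and lowest for the markers (-0.72). The part of meningeal tissue in the Col16a1 values was not tested. Of the 7 tested striatal markers 6 were higher in old frontal cortex, with a median of 0.43 and 0 called (0 at an unadjusted p under 0.05). Their array means ranged from -0.27 to 1.52 in young and from 0.48 to 2.26 in old frontal cortex, and their part in the Col16a1 values was not tested.

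**Figure D4:**
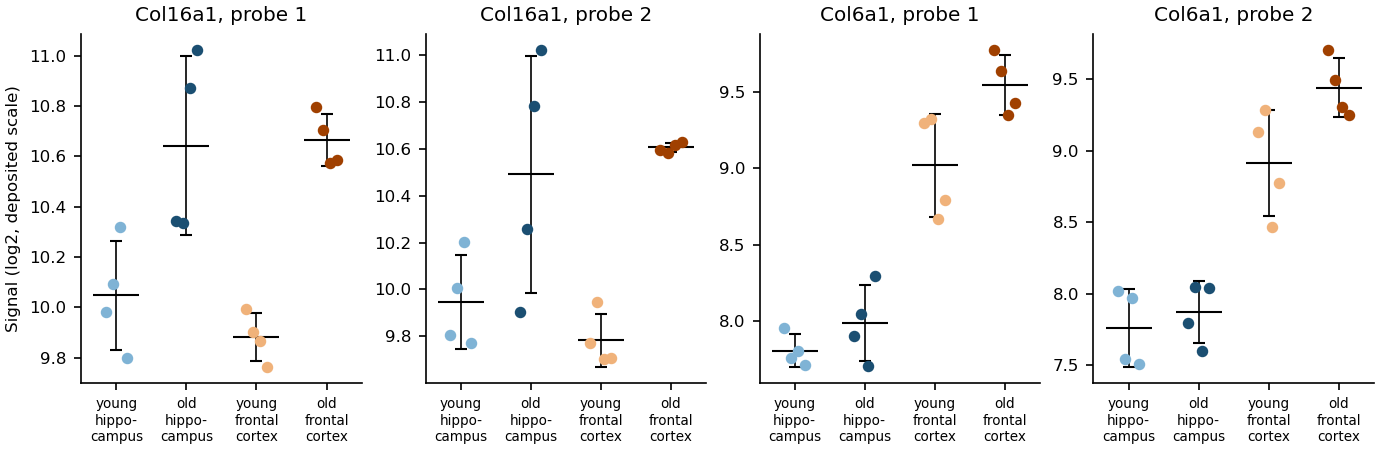
Deposited log2 signal of both probes of Col16a1 and both probes of Col6a1 in the 4 groups, with 1 point per array, the group mean as a line and the SD as bars (n = 4). For Col16a1 the old frontal cortex arrays lie above all young ones on both probes, and for Col6a1 all frontal cortex arrays lie above all hippocampus arrays; axes do not start at 0.

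The promoter of Col16a1 is shown as that of the gene with the age call. Its RefSeq window on GRCr8 is chr5:147672846-147673145, plus strand, with capitals for GGGCGG 183 bases upstream of the start and for its other-strand form CCGCCC 20 bases upstream.
Col16a1: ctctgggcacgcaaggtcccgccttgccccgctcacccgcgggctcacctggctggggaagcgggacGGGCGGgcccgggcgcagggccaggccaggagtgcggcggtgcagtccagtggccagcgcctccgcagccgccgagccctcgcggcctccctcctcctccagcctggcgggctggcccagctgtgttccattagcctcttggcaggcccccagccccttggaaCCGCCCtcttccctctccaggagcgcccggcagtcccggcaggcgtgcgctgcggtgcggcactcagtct
The window has 75% G and C and 27 CpG dinucleotides, and it holds neither CCAAT nor TATAAA.

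Col9a2, a chain of the type IX collagen that coats cartilage fibrils, had 8.96, 8.91, 8.77 and 8.71 log2 on the young and 9.78, 9.39, 8.63 and 9.09 on the old frontal cortex arrays. Old array AH fell below all young arrays and the other old arrays lay above them. The difference was 0.39 ± 0.18 in frontal cortex (adjusted p = 0.213). In hippocampus it had 8.91, 9.24, 9.00 and 8.77 on the young and 9.38, 9.09, 9.29 and 9.43 on the old arrays, with overlap, and differed by 0.33 ± 0.18 (adjusted p = 0.776). Its second probe gave 0.39 and 0.32. Without old frontal cortex array AH both Col16a1 and Col9a2 were called in frontal cortex, in a fit that called 251 of all 10036 genes instead of 97.

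Col12a1, which sits on type I fibrils in tendon and skin, pointed the other way in frontal cortex. It had 7.48, 7.70, 7.07 and 7.14 on the young and 6.87, 6.59, 7.06 and 7.09 on the old arrays, and young array AA lay just below old array AI. Its difference was -0.43 ± 0.19 (adjusted p = 0.185), and its 3 other probes did not pass the minimum. In hippocampus it had 7.73, 7.17, 6.68 and 7.34 on the young and 7.09, 7.10, 7.15 and 7.18 on the old arrays, where the young arrays lay on both sides of the old, and differed by -0.09 ± 0.19. The highest Col12a1 arrays were young Y of hippocampus and young Y and Z of frontal cortex, which were also high for Col1a2. Col19a1, which in mouse is made by some interneurons, had 7.39, 6.99, 7.11 and 7.14 on the young and 7.56, 7.26, 7.24 and 7.47 on the old hippocampus arrays. They overlapped only at young array Y, and the difference was 0.23 ± 0.12 (adjusted p = 0.763). In frontal cortex it had 7.24, 7.66, 7.13 and 7.36 on the young and 7.52, 7.47, 7.23 and 7.52 on the old arrays, with overlap, and differed by 0.10 ± 0.12 (adjusted p = 0.664).

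The 2 tested multiplexins lie in vascular and epithelial basement membranes, and the C-terminal end of the Col18a1 product is released as endostatin. Col18a1 had the values 8.35, 7.82, 7.72 and 7.42 on the young and 7.88, 7.81, 8.34 and 7.90 on the old hippocampus arrays. In frontal cortex these were 7.87, 8.32, 7.43 and 7.63 on the young and 7.61, 7.81, 7.53 and 7.60 on the old arrays. The ages overlapped in both regions, with differences of 0.17 ± 0.19 in hippocampus (adjusted p = 0.897) and -0.17 ± 0.19 in frontal cortex (adjusted p = 0.638). The difference between these 2 effects was -0.34 ± 0.27 (adjusted p = 0.999). Col15a1 differed by -0.03 ± 0.19 in hippocampus and 0.17 ± 0.19 in frontal cortex.

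Between the regions the largest collagen difference was that of Col6a1. It had 7.96, 7.76, 7.80 and 7.71 log2 on the young and 7.90, 8.05, 7.71 and 8.29 on the old hippocampus arrays. All 8 lay below all 8 frontal cortex arrays, which ran from 8.67 to 9.78. Col6a1 was lower in hippocampus by 1.39 ± 0.11 log2 (SE, 8 arrays against 8; 2.63-fold; limma adjusted p = 7.82e-08), and it was the 1 of 21 without overlap, where 8.73% of all genes had none. The difference was -1.22 ± 0.16 in young (adjusted p = 3.7e-05) and -1.57 ± 0.16 in old rats (adjusted p = 2.73e-06). The second probe gave -1.37, also without overlap. The call was kept in all 16 fits without 1 array. Col6a2, its partner chain, was not called, at -0.33 ± 0.19 (adjusted p = 0.207), with arrays from 8.89 to 9.78 in hippocampus and from 8.89 to 10.12 in frontal cortex.

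The promoter of Col6a1 is shown as that of the member with the regional difference. Its RefSeq window on GRCr8 is chr20:11905440-11905739, plus strand, and capitals mark TGACTCA, 99 bases upstream of the start.
Col6a1: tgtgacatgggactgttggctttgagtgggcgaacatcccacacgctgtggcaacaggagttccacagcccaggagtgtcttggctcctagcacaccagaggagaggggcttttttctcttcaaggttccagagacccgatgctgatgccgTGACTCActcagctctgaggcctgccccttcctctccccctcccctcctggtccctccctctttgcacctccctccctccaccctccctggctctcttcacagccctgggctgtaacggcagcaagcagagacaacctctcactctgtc
It was the only 1 of the 17 windows of tested collagen genes with TGACTCA.

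**Figure D5:**
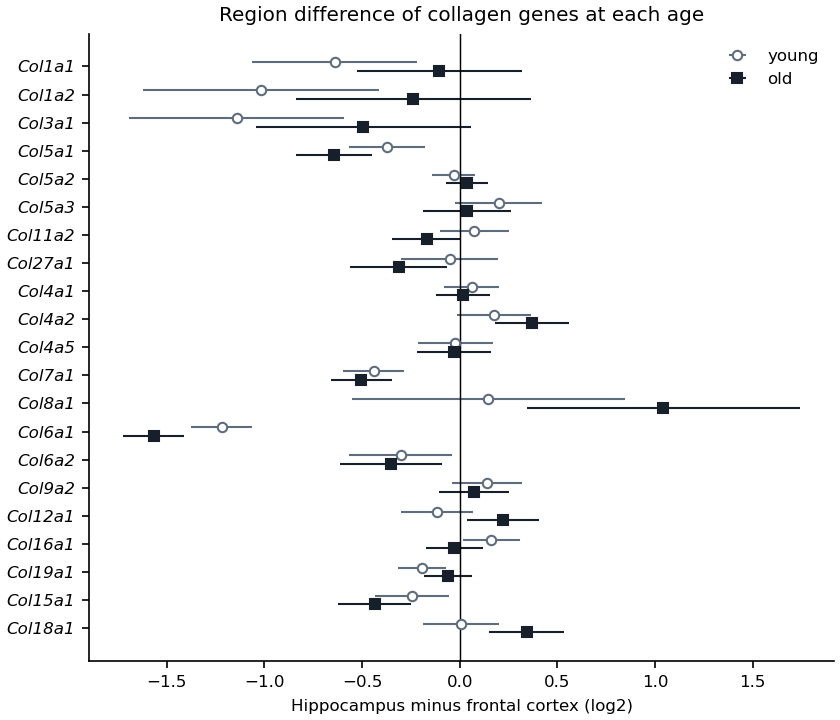
Hippocampus minus frontal cortex difference in log2 signal of the 21 tested collagen genes in young (open circles) and old rats (filled squares), with bars for the SE of the fit. Col6a1 lies at -1.22 and -1.57, and Col5a1 and Col7a1 also lie to the left of 0 at both ages.

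Col7a1 and Col5a1 were the other 2 regional calls. Col7a1, measured by 1 probe, had 5.92, 5.85, 5.83 and 5.80 in young and 5.92, 5.68, 6.50 and 6.25 in old hippocampus, against 6.55, 6.44, 6.22 and 5.93 in young and 6.39, 6.75, 6.64 and 6.56 in old frontal cortex. Col7a1 passed the minimum of 6.49 only through old frontal cortex (mean 6.58, the other groups 5.85 to 6.28), the group where it is highest, so its regional difference is tied to its passing and is given as a description. The difference was -0.47 ± 0.11 (1.39-fold, adjusted p = 0.00436), and with no minimum the adjusted p was 0.00735 over 16921 genes. Col5a1 had 7.50, 6.80, 7.22 and 6.93 in young and 6.62, 7.20, 7.06 and 7.55 in old hippocampus, against 7.81, 7.72, 7.24 and 7.16 in young and 7.88, 7.67, 7.60 and 7.83 in old frontal cortex. The regions overlapped for both genes. The Col5a1 difference was -0.51 ± 0.14 (1.42-fold, adjusted p = 0.0105), and -0.55 on the second probe.

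These calls were less steady than that of Col6a1. Col5a1 was not called in young arrays alone (-0.37, adjusted p = 0.201), and without young frontal cortex arrays Y and Z it gave -0.37 (adjusted p = 0.084). Col7a1 was not called in a fit of the old arrays alone (-0.50, adjusted p = 0.0964). With the ages estimated separately from all 16 arrays it was called in old (-0.50, adjusted p = 0.0354) and not in young rats (-0.44, adjusted p = 0.0796), so the call at a single age depends on the fit. The largest differences that missed the call were those of Col3a1 (-0.82 ± 0.39, adjusted p = 0.131), Col1a2 (-0.63 ± 0.43, adjusted p = 0.297) and Col8a1 (0.59, adjusted p = 0.402). Col8a1 passed the minimum only through the hippocampus groups (6.54 and 7.01, against 6.39 and 5.96 in frontal cortex). Its regional difference is therefore tied to its passing. Without young hippocampus array Y, Col15a1 and Col3a1 were called as well, which made 5 regional calls.

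Markers of several cell types differed between the regions beside these genes. The shares of markers called are to be read beside the 28.8% of all tested genes called between the regions. Of 12 tested pericyte and smooth muscle markers 11 were lower in hippocampus (4 called, median -0.36), among them Abcc9 at -0.45 ± 0.084. Of 11 endothelial markers 10 were lower (4 called, median -0.29), and of 11 meningeal fibroblast markers 7 were lower (0 called, median -0.17). Cdh5 of the endothelial and Foxc2 of the meningeal markers passed the minimum only through frontal cortex, so their differences are tied to their passing. The striatal median was -1.76. Within young frontal cortex the arrays with the lower Col6a1 values, AA and AB, had the higher striatal means, 1.45 and 1.52 against -0.27 and -0.26 on Y and Z. Those with the higher Col6a1 values, Y and Z, had the higher pericyte means, 0.49 and 0.53 against -0.06 and 0.14. In old frontal cortex the order was another: array AF, highest for Col6a1 (9.78), had the lowest pericyte mean (-0.005) and array AI (9.43) the highest (0.16). The group mean of the pericyte markers was also lower in old (0.04) than in young frontal cortex (0.28), where Col6a1 was not. The part of these cell types in the regional values was not tested.

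Col9a1, the partner chain of Col9a2, was not tested because its brightest probe stayed below the minimum, at -0.07 between the regions. Of its 4 dimmer probes 3 had all hippocampus arrays below all frontal cortex arrays, with differences of -0.70, -0.50 and -0.59. Its probes therefore disagree, and no level of Col9a1 is taken from them. The region difference of Col9a2 was 0.11 ± 0.13 (adjusted p = 0.572).

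Genes that make, process, degrade or bind collagen were read from lists in the same fits, and 0 of the 42 tested (74 listed) were called for age by limma in either region. An unadjusted p under 0.05 was found for 14 of them in frontal cortex (33.3%, against 22.2% of all tested genes) and 2 in hippocampus (4.76%, against 6.77%). Of 15 tested genes of chain folding, modification and secretion (20 listed), 8 were higher and 7 lower in old frontal cortex, with a median of 0.02. The 3 with the smallest p there were Crtap and P3h1, partners in prolyl 3-hydroxylation, at 0.62 ± 0.18 and 0.39 ± 0.12 (adjusted p = 0.0771 and 0.094), and P4ha2, a prolyl 4-hydroxylase subunit, at 0.43 ± 0.14 (adjusted p = 0.0963). Serpinh1, the collagen chaperone of the endoplasmic reticulum, was at -0.61 ± 0.22 (adjusted p = 0.127). In hippocampus 11 of the 15 were higher, with a median of 0.07.

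Of 5 tested genes of propeptide cleavage and cross-linking (13 listed), 2 were higher and 3 lower in old frontal cortex, with a median of -0.66. Loxl1, a lysyl oxidase that cross-links matrix, was at -0.89 ± 0.25 (adjusted p = 0.0757), and Pcolce, which enhances the cleavage of type I propeptides, at -1.09 ± 0.51 (adjusted p = 0.22). Bmp1, the protease that cleaves these propeptides, was at 0.39 ± 0.14 (adjusted p = 0.123). Of 9 tested genes of degradation and its inhibitors (14 listed), 2 were higher and 7 lower, with Timp3, a matrix-bound protease inhibitor, at -0.58 ± 0.17 (adjusted p = 0.0791). All 3 tested collagen receptors (9 listed), the integrin chains Itga1 and Itgb1 and the receptor kinase Ddr2, were lower, with Itgb1, the beta chain of the collagen-binding integrins, at -0.37 ± 0.13 (adjusted p = 0.122). Of 10 other matrix genes (18 listed), 2 were higher and 8 lower, with Nid1, which bridges laminin and type IV collagen, at -0.67 ± 0.21 (adjusted p = 0.094) and Dcn, a proteoglycan on type I fibrils, at -1.13 ± 0.39 (adjusted p = 0.118).

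Between the regions 8 of these 42 genes (19.0%) were called, a smaller share than the 28.8% of all tested genes. P4ha3, another prolyl 4-hydroxylase subunit, was lower in hippocampus by 0.96 ± 0.085 log2 (adjusted p = 2.4e-07) and Bmp1 by 0.63 ± 0.098 (adjusted p = 0.000112). The other 6 were higher in hippocampus: Ppib, a proline isomerase of the endoplasmic reticulum, by 0.33, Loxl1 by 0.50, Timp4, a protease inhibitor, by 0.78, the laminin chain gene Lama2 by 0.65, Sparc, a collagen-binding matrix protein, by 0.29, and Dcn by 0.89. The regional calls of these genes lay in both directions, and the 3 of the collagen genes were all higher in frontal cortex.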

How the data were processed

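Total RNA of hippocampus and frontal cortex was labelled with Cy3 and hybridised to Agilent rat arrays in 1 colour, and scans were quantified with Agilent Feature Extraction, per the submitters' processing notes, which give no version. The series value table that the authors deposited holds log2 signals, a scale read from its range of 4.94 to 17.8. The columns share 1 median (6.77) and 1 upper quartile (9.17). Centring and direction follow from single-channel signals, while no label or header used here states the background correction, the normalization or an offset. The raw signal table has 16 value columns that match no sample by name, so they were not used, and slides could not be compared.

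Probe symbols came from the platform annotation, brought up to date by accession (39795 probes), symbol (5065) or synonym (1024) from RefSeq gene tables of GRCr8, and 20 kept the array symbol. The 75th percentile of the gene probes (9.42 to 9.444) was subtracted from each array, so fitted differences can depart slightly from differences of the deposited means. A gene was its probe of highest mean, kept where any group mean was over 6.49 (40th percentile of probe means). limma 3.58.1 in R 4.3.3 estimated the 4 group means from the 16 arrays together (degrees of freedom 12 residual, 4.07 prior), with two-sided moderated p-values adjusted by Benjamini-Hochberg over 10036 genes in each of 4 comparisons, which were old minus young in hippocampus and in frontal cortex, the difference of these (cortex minus hippocampus) and region (hippocampus minus frontal cortex). A call is an adjusted p under 0.05, and errors of differences are moderated SEs. The script was tested on simulated data. The precision is limited by the number of arrays and by the spread between them.

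Values on every array are given for collagen genes called in any comparison and for those with the 3 smallest p-values in each; others shown this way were chosen after their values were seen, and up to 4 genes of the smallest p are named from each other list. The members, the classes, the lists and the tests were chosen with earlier results of these data known. The title codes were not used to pair arrays. Alternatives were other normalizations, filters, probe summaries and variance models, array weights, single regions or ages, a replicate block, and arrays left out. RefSeq promoter windows were matched by symbol to 30 of 37 genes.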

Additional observations from a re-analysis of the deposited data

Results flagged for a closer look

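In 84 groups of 4 arrays (21 tested collagen genes in 4 groups), 1 array stood farther from the others than a 95% limit for a single outlying value allows, and chance alone gives about 1 in 20 groups. It was old frontal cortex array AH for Col19a1, at 7.23 log2, below the other old frontal cortex arrays, which lay between 7.47 and 7.52. Its age difference in frontal cortex was 0.10 ± 0.12.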

How the results depend on the processing

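The number of collagen genes called stayed at 0 for age in hippocampus and for the difference of the age effects in every setting run, each array left out in turn included. In frontal cortex 1 gene was called for age in all settings but 1 with no single array left out: it was 0 without young arrays Y of both regions and Z of frontal cortex, a setting chosen after seeing the data, where Col16a1 gave 0.86 (adjusted p = 0.0864). With 1 array left out the count ran from 0 to 2. The 1 gene was Col6a1, in place of Col16a1, without young frontal cortex arrays Y and Z. For region 3 genes were called, from 3 to 5 with 1 array left out, and 1 (Col6a1) with the minimum at the 60th percentile, which leaves 12 collagen genes to test. It was 2 in young arrays alone, in old arrays alone, without young frontal cortex arrays Y and Z and in the added setting, and 4, with Col15a1, from the mean of all probes or with array weights. Col6a1 was called in every one of these. In the added setting Col7a1 gave -0.38 (adjusted p = 0.0525). With 1 array left out, the median difference of the collagen genes ran from -0.064 to 0.144 for age in hippocampus. It ran from -0.091 to 0.035 for age in frontal cortex and from -0.13 to -0.008 for region. Without young frontal cortex arrays Y and Z it was 0.009 for region, so its sign is not settled for age or for region.

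Over all genes, the calls for age in frontal cortex (97) were 29 in the 8 cortex arrays alone, 45 with the 60th percentile, 47 without a filter, 26 without young frontal cortex arrays Y and Z, 7 in the added setting and 4 to 737 with 1 array left out. Those in hippocampus (4) were 1 in its 8 arrays alone, 8 with array weights, 8 with the 60th percentile and 1 to 7 with 1 array left out. Those for region (2895) were 1038 in old arrays alone and 1822 in the added setting. Beyond the fewer arrays or genes of a setting the cause was not tested. A replicate block by title code (consensus correlation 0.0504) kept the counts at 0 and 1 for age in hippocampus and frontal cortex, 0 for their difference and 3 for region, and changed no call of a named collagen gene. Whether a code marks 1 animal is not known: deviations from the group means of same-coded arrays correlated by -0.171 to 0.282, over 0.1 for 3 of 8 codes (AA, AF and AI), and 7 of 16 arrays correlated best with their own code. The erythrocyte marker means of same-coded old arrays lay close in the 2 regions, 1.37 and 1.68 for AF, -0.79 and -1.12 for AG, 0.18 and 0.21 for AH, and -0.10 and -0.075 for AI. Not all young codes did: they gave 0.22 and 0.24 for Y and -0.21 and -0.10 for AB, but -0.88 and -0.17 for Z and -0.47 and 0.003 for AA.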

Other observations

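Other marker lists were read in the same fits beside the collagen genes. All 5 tested erythrocyte markers were higher in old rats in both regions, with medians of 0.52 log2 in hippocampus and 0.22 in frontal cortex and 0 called in either by limma (0 at an unadjusted p under 0.05). Of 6 neuron markers 6 were lower in old hippocampus and 4 in old frontal cortex, with medians of -0.14 and -0.10 and 0 called (0 and 1 at an unadjusted p under 0.05). Of 12 pericyte and smooth muscle markers 8 were lower in old hippocampus and 9 in old frontal cortex (0 called, 1 and 2 at an unadjusted p under 0.05). Of 11 endothelial markers 6 were lower in each region (0 called, 1 and 3 at an unadjusted p under 0.05). Among these, Tie1 passed the minimum only through the young groups (6.551 and 6.856, against 6.275 and 6.375 in the old). Its falls in both regions are therefore tied to its passing.

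Some dim probes of untested collagens held age differences without overlap in hippocampus, which 4.57% of all tested genes showed. On a second Col10a1 probe all old hippocampus arrays lay above the young ones (means of 5.53 and 5.12), and so did those of the first Col13a1 probe (5.51 and 5.24). Both lie below the minimum of 6.49 and carry no test. On the other Col10a1 probes the ages overlapped in hippocampus, with differences of 0.14, -0.11 and -0.13. They also overlapped on the second Col13a1 probe (0.19).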
